A study of Homo sapiens with 10 samples.

Results

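The glyoxalase enzymes, the receptor for advanced glycation end products (RAGE) and the RAGE ligands expressed in ARPE-19 cells were followed through 10 genes, chosen by their symbols in the deposited table of read counts. They were the glyoxalases GLO1 and HAGH, the deglycase candidate PARK7, the receptor gene AGER, the nuclear protein gene HMGB1, and the S100 genes S100A6, S100A10, S100A11, S100A13 and S100A16. All 10 were found among the 22626 rows of the table, and all 10 passed the filter on low counts that left 14936 rows to test.

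ARPE-19 is a human cell line derived from retinal pigment epithelium (RPE), the cell layer behind the photoreceptors. The 5 control libraries (MG) came from cells kept for 48 h in medium with D-glucose at 5.5 mM, to which mannitol, a sugar alcohol that balances the osmotic load, was added at 32 mM. The 5 high glucose libraries (HG) came from cells kept for 48 h in 37.5 mM D-glucose. Cells of both groups were maintained in DMEM with fetal bovine serum and antibiotics, the labels name no genetic change in either group, and they do not say whether the 5 libraries of a group came from separate cultures, so p-values measured the spread between libraries, which may be technical.

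Methylglyoxal, a reactive dicarbonyl that forms beside glycolysis, modifies proteins and gives rise to advanced glycation end products. GLO1 converts the adduct of methylglyoxal and glutathione, and HAGH, the second glyoxalase, releases lactate and returns the glutathione. RAGE, the product of AGER, binds advanced glycation end products and also HMGB1 and several S100 proteins, which are small calcium-binding dimers with other partners inside the cell, such as the annexins.

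Total counts per library lay between 32448991 and 45864176. TXNIP, a gene induced by glucose, was counted 177 to 581 times in the HG libraries and 27 to 55 times in the MG libraries, in the direction of the labels. The libraries MG_2 and HG_1 stood apart from the others of their group in how counts followed base composition: their slopes were 0.166 and 0.184 log2 units per 10 points of GC content, whereas the other 8 libraries lay between -0.091 and -0.0041. Of 12 RPE markers, 9 were tested and 3 fell (KRT8, KRT18 and PMEL), with a summed level of 2833 to 3591 CPM (counts-per-million, scaled by TMM) in MG and 1796 to 2470 CPM in HG, of which the general epithelial keratins KRT8 and KRT18 made up 79.3 to 95.2% and 91.2 to 93.7%. MITF, OTX2, RLBP1, LRAT and SERPINF1 did not pass, while RPE65 was at 0 in 9 libraries and TTR in all 10. BEST1, which is in that sum, was counted 8707 and 18223 times in MG_1 and MG_4 and 24 to 300 times in the other 8 libraries, with a log2 fold change of -4.97 that did not pass (edgeR adjusted p = 0.067). Without BEST1 the sum was 2832 to 3453 CPM in MG and 1790 to 2462 CPM in HG. Of the markers of other cell types, the endothelial gene CDH5 and the fibroblast gene LUM were at 0 in all 10 libraries. PECAM1 was at 0 in 8 libraries, DCN in 9 and the leukocyte gene PTPRC in 6. The endothelial receptor gene KDR was counted 70 to 151 times and fell by 0.63 on the log2 scale (edgeR adjusted p = 0.0452), VWF was above 0 in 9 libraries at up to 24 counts, and PDGFRA was counted 3 to 17 times. The 4 endothelial markers summed to 2.93 to 5.05 CPM in MG and 2.13 to 3.01 CPM in HG, and the 3 fibroblast markers to at most 0.394 CPM. The summed level of the 3 immune markers, nearly all of it the lysosomal gene CD68, was 54.5 to 81.3 CPM in MG and 101.7 to 143.6 CPM in HG, and the part of any of these shifts in the results was not tested. In RNA from whole cultures, less RNA per cell and fewer cells expressing a gene cannot be told apart.

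In high glucose 2 of the 10 genes changed. GLO1 rose 1.16-fold (95% interval of the change 9.71 to 22.6%) and S100A10 fell by 31.5% (95% interval of the change -40.5 to -21.1%), each with an adjusted p under 0.05 by the quasi-likelihood test of edgeR, adjusted after Benjamini-Hochberg over all rows. The other 8 genes did not pass the test. Across all rows tested, 15.4% passed the same test, 7.62% higher and 7.8% lower in HG, so a count of 2 in 10 was near the background of the series. The median log2 fold change of the 10 genes was 0.03, against 0.0013 over all rows. The groups did not overlap for the same 2 genes, and for 13.6% of all rows.

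**Figure D1:**
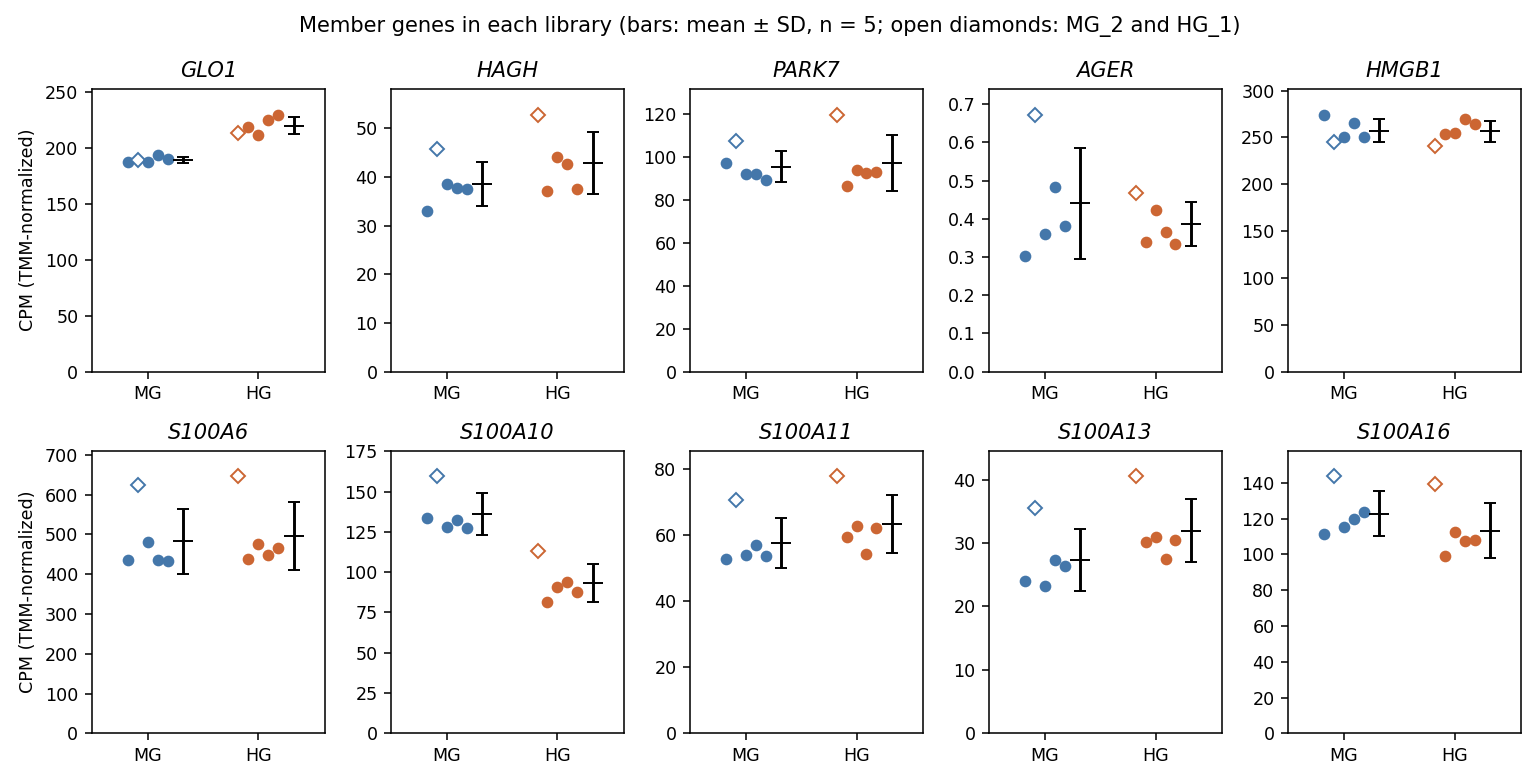
Level of each of the 10 genes in each library, in CPM after TMM normalization (vertical axis, starting at 0, with its own scale for each gene), for the control medium (MG) and high glucose (HG). Points are libraries and bars the mean ± SD of 5; the open diamonds are MG_2 and HG_1. All HG points lie above all MG points for GLO1 and below them for S100A10, and the groups overlap for the other 8 genes.

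Expression per length of transcript, in FPKM, a unit that corrects fragment counts for transcript length and depth, placed the 10 genes over a wide range in the control cells. S100A6 was the most abundant (1004 ± 152 FPKM, SD, n = 5), followed by S100A10 (186.9 ± 15.4 FPKM). S100A16 (98.4 ± 9.48), S100A11 (94.2 ± 10.9), GLO1 (86.6 ± 1.93), PARK7 (82.4 ± 6.21) and HMGB1 (77.9 ± 6.73 FPKM) came next, and the ranges of neighbours in that stretch overlapped. S100A13 (44.8 ± 6.32 FPKM), HAGH (23.4 ± 3.09 FPKM) and AGER (0.256 ± 0.085 FPKM) were each apart from the gene above them. In HG, S100A10 stood at 129.0 ± 13.6 FPKM and its range overlapped that of S100A11 (104.1 ± 12.1 FPKM), which it had not done in MG. Within a library, the FPKM of S100A6 was 4.96 to 5.91 times that of S100A10 in MG and 7.23 to 8.65 times in HG.

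The 5 S100 genes lie on chromosome 1 and encode related proteins, so their coding sequences were compared to see whether reads could be exchanged between them. Of the pair below, S100A10 is the one that fell and S100A6 the most abundant, and both would be exposed if the family exchanged reads. They are coding sequences of GENCODE release 29 (build GRCh38, minus strand, start codon to stop codon) from transcripts S100A10-201 and S100A6-201, and the capitals mark the longest run that each shared with the coding sequence of another of the 5 genes.
S100A10: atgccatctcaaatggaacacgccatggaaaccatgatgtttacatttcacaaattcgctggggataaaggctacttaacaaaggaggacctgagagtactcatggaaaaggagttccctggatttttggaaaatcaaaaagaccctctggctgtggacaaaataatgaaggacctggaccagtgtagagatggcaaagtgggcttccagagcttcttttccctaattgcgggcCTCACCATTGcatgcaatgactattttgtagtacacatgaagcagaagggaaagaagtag
S100A6: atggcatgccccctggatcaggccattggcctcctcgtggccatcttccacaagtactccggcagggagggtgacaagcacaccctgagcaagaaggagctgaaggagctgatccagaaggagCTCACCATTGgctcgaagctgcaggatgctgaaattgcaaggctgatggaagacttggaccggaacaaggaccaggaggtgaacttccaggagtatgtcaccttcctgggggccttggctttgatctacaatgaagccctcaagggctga
The capitals in S100A10 and S100A6 are the same 10 bases, at bases 235 and 124 of the coding sequence. Over the 10 pairs of the 5 genes, aligned coding sequences were identical at 47.1 to 53.9% of positions, and the longest identical run between whole transcripts was 12 bases. No window of 100 bases in the transcript taken to represent S100A6, S100A10, S100A11 or S100A16 occurred in another gene. In S100A13, 56.4% of the windows also occurred in the overlapping transcript AL162258.1, and in HMGB1 7.63% occurred in 3 other genes, mostly the pseudogene HMGB1P5, so the counts of both depend on how such reads were assigned.

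GLO1 (chr6:38675925-38703141, minus strand) encodes the first enzyme of the glyoxalase route. Its level was 186.7, 188.9, 187.0, 193.4 and 190.1 CPM in MG_1 to MG_5. In HG_1 to HG_5 it was 213.3, 218.7, 211.6, 224.3 and 229.3 CPM. The lowest HG library was above the highest MG library, and the spread of GLO1 in MG was small (SD 2.72 CPM), at 1.44% of its mean the smallest relative spread of the 10 genes in that group. The log2 fold change was 0.21 (SE 0.036), with an adjusted p of 0.00279 in edgeR's quasi-likelihood test and p = 0.00794 in a two-sided exact permutation test, the smallest p that 5 against 5 libraries can give. With each library's trends on GC content and transcript length removed, the log2 fold change was 0.15 (edgeR adjusted p = 0.0084). That removal took the SD of log2 CPM for GLO1 from 0.021 to 0.044 in MG and from 0.049 to 0.054 in HG.

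HAGH (chr16:1795620-1827194, minus strand) encodes the enzyme that completes the route. It was at 33.1, 45.8, 38.6, 37.6 and 37.5 CPM in MG_1 to MG_5, and at 52.8, 37.2, 44.2, 42.6 and 37.6 CPM in HG_1 to HG_5. The groups overlapped, and MG_2 and HG_1 were the highest of their groups. The log2 fold change of 0.15 (95% interval -0.088 to 0.40) had an edgeR adjusted p of 0.412 and an exact permutation p of 0.278. Removing the trends on GC content and length gave 0.18 with an edgeR adjusted p of 0.0248, and the groups then did not overlap. In that setting 27.9% of all rows passed the test and 21% did not overlap. Without MG_2 and HG_1 the log2 fold change was 0.14 (edgeR adjusted p = 0.192) and the groups overlapped. HAGH shares 254 exonic bases, 4.25% of its exonic length, with FAHD1 on the opposite strand, and whether the counting used strand is not given in the sources used here. The 2 enzymes were also compared within each library: the ratio of GLO1 to HAGH was 412 to 564% in MG and 404 to 610% in HG, a log2 difference of 0.063 (exact permutation p = 0.619, two-sided), so the ranges of the groups overlapped almost entirely.

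PARK7 (chr1:7954291-7985505, plus strand) encodes DJ-1, a protein of the oxidative stress response to which a deglycase activity has been ascribed. It was at 95.6 ± 7.18 CPM in MG and 97.1 ± 13.1 CPM in HG (SD, n = 5). The highest libraries were MG_2 (107.4 CPM) and HG_1 (119.9 CPM). The log2 fold change of 0.02 had a 95% interval of -0.17 to 0.22 (edgeR adjusted p = 0.907), and its sign turned in 4 of 23 alternative analyses.

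Further enzymes that handle dicarbonyls, glycated proteins and glutathione were counted from a list of 21 genes, of which 19 were tested. In HG 5 rose and 3 fell, 11 did not pass, and the median log2 fold change of the 19 was 0.11; over all rows 7.62% rose, 7.8% fell and the median was 0.0013. The 5 that rose were HAGHL (0.67, edgeR adjusted p = 0.0354), a relative of HAGH, the aldehyde dehydrogenases ALDH2 (0.24, 0.0211), ALDH9A1 (0.22, 0.00193) and ALDH3A2 (0.18, 0.0252), and GSR (0.23, 0.00299), which keeps glutathione in its reduced form. AKR1B1, the aldose reductase that turns glucose into sorbitol and also reduces methylglyoxal, fell from 1277 ± 152 to 904 ± 110 CPM (log2 fold change -0.50, edgeR adjusted p = 0.00608). ALDH1A3, which oxidizes retinaldehyde, fell by 0.46 on the log2 scale (edgeR adjusted p = 0.00284), and AKR1C3, a ketosteroid reductase, fell by 0.43 (edgeR adjusted p = 0.0452). The genes that make glutathione, GCLC, GCLM and GSS, had log2 fold changes of 0.07, 0.04 and 0.18 and did not pass, nor did FN3K (0.57, edgeR adjusted p = 0.0577), the kinase that starts the removal of sugars from glycated proteins. When single libraries were left out in turn, AKR1C3 lost its call in 8 of 10 fits, HAGHL in 6, ALDH3A2 in 5 and ALDH2 in 3, and in the 3 fits to FPKM values GSR, ALDH2 and ALDH3A2 lost theirs.

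AGER (chr6:32180968-32184324, minus strand) encodes RAGE itself and was near the floor of detection. It was counted 10, 30, 15, 16 and 17 times in MG_1 to MG_5 and 18, 14, 19, 12 and 11 times in HG_1 to HG_5. These were levels of 0.441 ± 0.145 CPM in MG and 0.386 ± 0.058 CPM in HG, at the 4.08th percentile of the mean log2 CPM of the rows tested. The groups overlapped and the counts allowed no narrow estimate: the log2 fold change was -0.19 with a 95% interval of -0.79 to 0.41 (edgeR adjusted p = 0.716). AQP5 and CLIC5, which accompany AGER in alveolar type I cells of the lung, where RAGE is abundant, reached at most 6 and 10 counts in a library.

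Of 29 genes for signalling from RAGE, for receptors that share its ligands and for other proteins that bind advanced glycation end products, 24 were tested, 1 rose and 1 fell, against 15.4% of all rows called, and the median log2 fold change was -0.0032. SCARB1, a lipoprotein receptor that also binds glycated proteins, rose from 175.1 ± 12.6 to 221.3 ± 20.5 CPM (log2 fold change 0.34, edgeR adjusted p = 0.00889). MYD88, the adaptor of the Toll-like receptors, fell by 0.24 on the log2 scale (edgeR adjusted p = 0.0396), a call lost in 8 of the 10 fits that left out 1 library. DIAPH1, whose product binds the tail of RAGE inside the cell, had a log2 fold change of -0.10 (95% interval -0.20 to -0.00047, edgeR adjusted p = 0.174). LGALS3, which encodes galectin-3, stood at 0.08 (-0.091 to 0.25, edgeR adjusted p = 0.563). The count for this list depended on the analysis and ran from 0 to 6 called genes over the alternatives.

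HMGB1 (chr13:30456704-30617597, minus strand) encodes a chromatin protein that acts on RAGE and Toll-like receptors once outside the cell. Its level was 274.3, 244.7, 250.6, 265.6 and 250.7 CPM in MG_1 to MG_5 and 240.6, 253.8, 254.3, 269.6 and 264.2 CPM in HG_1 to HG_5. The groups overlapped, and the log2 fold change from counts was -0.0039 with a 95% interval of -0.11 to 0.099 (edgeR adjusted p = 0.969), an interval of -7.11 to 7.08% on the linear scale. From the FPKM values it was -0.13 by limma on log2(FPKM + 1) (adjusted p = 0.298), outside the interval from counts. The ratio of count to FPKM for HMGB1, divided by the total count of each library, varied by 19.4% between libraries. Its relative HMGB2 rose from 114.8 ± 3.24 to 130.8 ± 6.35 CPM (log2 fold change 0.19, edgeR adjusted p = 0.0149; limma on log2(FPKM + 0.1) gave 0.0575), and HMGB3 had a log2 fold change of 0.16 that did not pass (edgeR adjusted p = 0.0948).

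S100A10 (chr1:151982915-151994390, minus strand), whose coding sequence is the first of those shown above, encodes p11, an S100 protein that does not bind calcium and that forms a tetramer with annexin A2 at the plasma membrane, where it binds plasminogen and its activator. Its level was 133.3, 159.4, 128.1, 132.1 and 127.4 CPM in MG_1 to MG_5. In HG_1 to HG_5 it was 113.1, 81.5, 90.5, 93.8 and 87.5 CPM. The highest HG library, HG_1, was below the lowest MG library, and MG_2 and HG_1 were again the highest of their groups. The log2 fold change was -0.54 (SE 0.092), with an adjusted p of 0.00276 in edgeR's quasi-likelihood test and an exact permutation p of 0.00794 (two-sided). It ranged from -0.62 to -0.48 when each library was left out in turn.

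ANXA2, the annexin of that complex, was at 3115, 3120, 2836, 2958 and 2960 CPM in MG_1 to MG_5 and at 2655, 2233, 2255, 2323 and 2274 CPM in HG_1 to HG_5, with no overlap. It fell by 0.35 on the log2 scale (SE 0.055, edgeR adjusted p = 0.00176). The ratio of S100A10 to ANXA2 within a library, which is free of the scaling between libraries, was 4.28, 5.11, 4.52, 4.47 and 4.31% in MG_1 to MG_5 and 4.26, 3.65, 4.02, 4.04 and 3.85% in HG_1 to HG_5. S100A10 thus fell more than ANXA2, with a log2 difference of -0.19 in the mean ratio (exact permutation p = 0.00794, two-sided), although the highest HG ratio and the lowest MG ratio were close. AHNAK, a large scaffold protein that binds the complex, had a log2 fold change of -0.23 (95% interval -0.46 to 0.0080, edgeR adjusted p = 0.191).

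**Figure D2:**
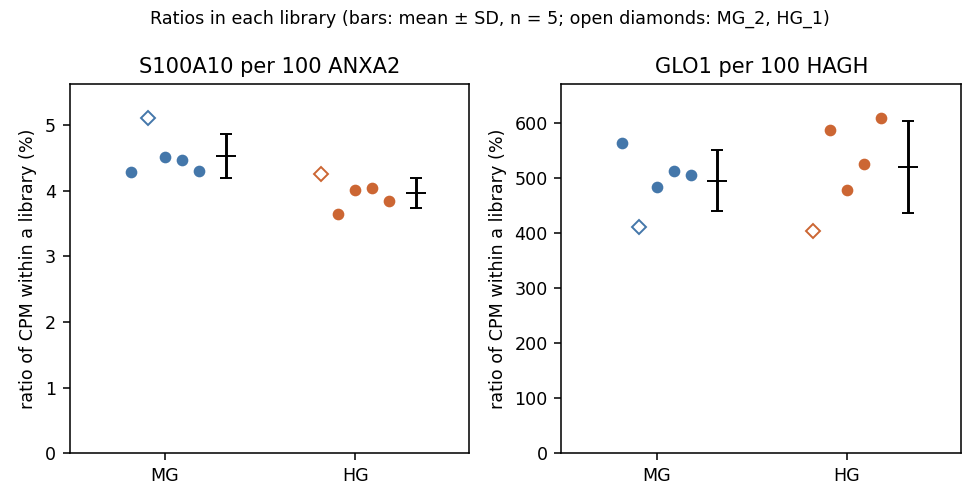
Ratio of CPM within each library, in percent (vertical axes, starting at 0), for S100A10 over ANXA2 (left) and GLO1 over HAGH (right), in MG and HG. Points are libraries and bars the mean ± SD of 5; open diamonds are MG_2 and HG_1. The S100A10 ratio lies at 4.28 to 5.11% in MG and 3.65 to 4.26% in HG, whereas the GLO1 ratio overlaps between the groups.

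S100A6 (chr1:153534599-153536244, minus strand), also called calcyclin, binds the protein encoded by CACYBP. It was at 436.5, 623.2, 482.1, 436.1 and 433.9 CPM in MG_1 to MG_5 and at 645.8, 438.0, 477.1, 448.4 and 465.6 CPM in HG_1 to HG_5. MG_2 and HG_1 were far above the other 8 libraries, which lay between 433.9 and 482.1 CPM whatever their group. The log2 fold change was 0.04 (95% interval -0.25 to 0.32, edgeR adjusted p = 0.895). The trend on GC content and length for S100A6 was 0.48 log2 units in HG_1 and 0.37 in MG_2, against -0.18 to 0.0100 in the other libraries, and once it was removed the SD over the MG libraries went from 0.22 to 0.047 log2 units and over the HG libraries from 0.23 to 0.024. The fold change was then -0.026 on the log2 scale (edgeR adjusted p = 0.587). For HMGB1 the same removal raised the SD, from 0.068 to 0.11 log2 units in MG and from 0.063 to 0.13 in HG, as it did for GLO1. CACYBP had a log2 fold change of -0.12 (95% interval -0.21 to -0.019, edgeR adjusted p = 0.105).

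S100A11 (chr1:152032506-152047907, minus strand) binds annexin A1. It was at 57.6 ± 7.50 CPM in MG and 63.2 ± 8.78 CPM in HG (SD, n = 5), a log2 fold change of 0.13 (95% interval -0.10 to 0.37, edgeR adjusted p = 0.472). The MG libraries other than MG_2 lay between 52.8 and 56.9 CPM, and the groups overlapped. ANXA1 rose from 779.9 ± 27.0 to 909.3 ± 29.7 CPM (log2 fold change 0.22, edgeR adjusted p = 0.00402), opposite in direction to ANXA2. Its log2 fold change was 0.16 (edgeR adjusted p = 0.0606) once the trends on GC content and length were removed.

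S100A13 (chr1:153618787-153631360, minus strand) takes part in the release of the growth factor FGF1 together with synaptotagmin 1. It was at 24.0, 35.5, 23.3, 27.3 and 26.3 CPM in MG_1 to MG_5 and at 40.5, 30.2, 31.0, 27.5 and 30.5 CPM in HG_1 to HG_5. The groups overlapped through MG_2, and the log2 fold change of 0.23 (95% interval -0.064 to 0.52) did not pass (edgeR adjusted p = 0.299). Without MG_2 and HG_1 the groups did not overlap, and the log2 fold change of 0.24 had an edgeR adjusted p of 0.0228. Over all rows, 27.1% passed the test and 30.7% did not overlap between the groups when those libraries were left out. With the trends on GC content and length removed, the log2 fold change of S100A13 was 0.21 (edgeR adjusted p = 0.057) and the groups overlapped. Both of its partners fell: FGF1 by 0.49 on the log2 scale (edgeR adjusted p = 0.00253) and SYT1 by 0.37 (edgeR adjusted p = 0.0217), although the call of SYT1 was lost in all 3 limma fits to FPKM values and that of FGF1 in 2 of them, on log2(FPKM + 1) and log2(FPKM + 0.1). SYT1 also lost its call without HG_5 (edgeR adjusted p = 0.053). Besides the windows shared with AL162258.1, S100A13 shares 235 exonic bases with S100A1 on the opposite strand, which held 206 counts over all 10 libraries.

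S100A16 (chr1:153606886-153613145, minus strand), a widely expressed member of the family, was at 122.7 ± 12.6 CPM in MG and 113.3 ± 15.4 CPM in HG. MG_2 (143.6 CPM) and HG_1 (139.4 CPM) were the highest of their groups, and the groups overlapped. The log2 fold change was -0.11 (95% interval -0.33 to 0.099, edgeR adjusted p = 0.498). Removal of the trends on GC content and length gave -0.17 with an edgeR adjusted p of 0.00519, and the groups did not overlap on that scale. There 27.9% of all rows passed the test and 21% did not overlap. Without MG_2 and HG_1 the log2 fold change of S100A16 was -0.14 (edgeR adjusted p = 0.0638) and the groups overlapped.

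**Figure D3:**
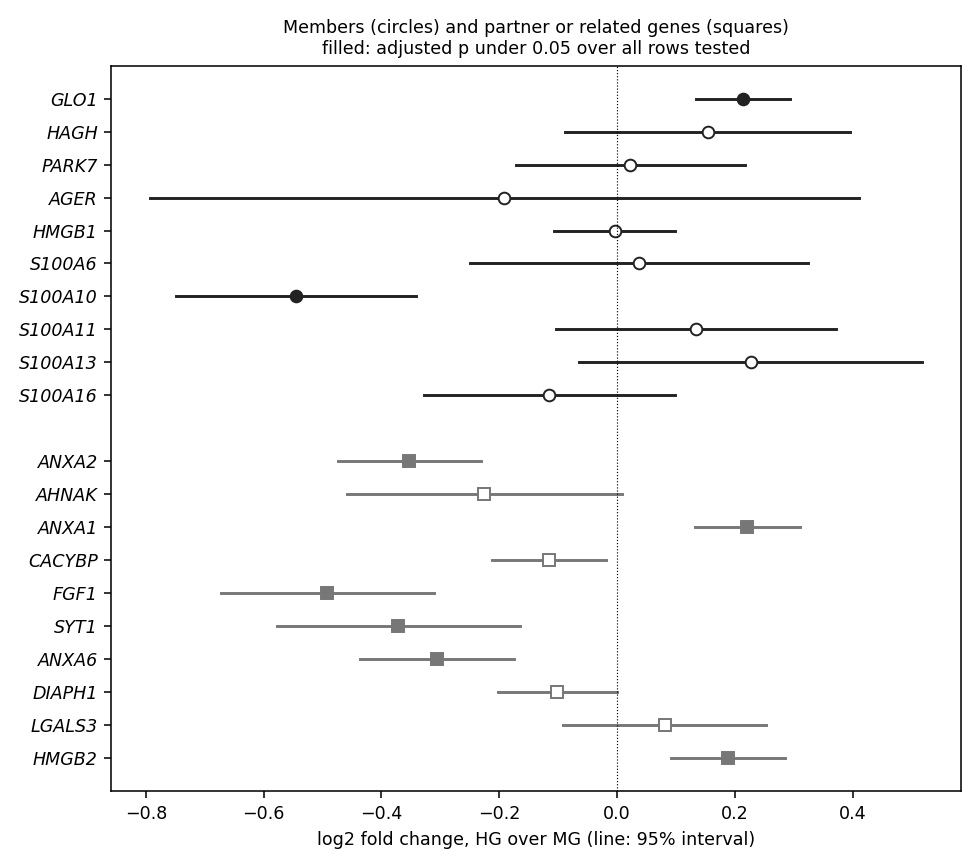
Log2 fold change of HG over MG (horizontal axis) with its 95% interval for the 10 genes (circles) and for named partner or related genes (squares). Filled symbols passed edgeR's quasi-likelihood test at an adjusted p under 0.05: GLO1 at 0.21 and S100A10 at -0.54 among the 10 genes, with ANXA2, FGF1, SYT1 and ANXA6 to the left of 0 and ANXA1 and HMGB2 to the right.

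Among 18 genes for protein partners of the S100 proteins and HMGB1, 17 were tested, of which 2 rose, 4 fell and 11 did not pass, with a median log2 fold change of -0.10, against 7.62% of all rows higher and 7.8% lower. Besides ANXA1, ANXA2, FGF1 and SYT1, these were ANXA6 (-0.31, edgeR adjusted p = 0.00596), another membrane-binding annexin, and HSPA8 (0.14, edgeR adjusted p = 0.0195), which encodes the constitutive HSC70 chaperone and lost its call without MG_5 (edgeR adjusted p = 0.0537) and by limma on log2(FPKM + 0.1) (adjusted p = 0.0518). Of the 18 other S100 and HMGB genes, 6 had enough counts to test, of which 1 rose and 2 fell, against the same shares of all rows, and 12 did not. The myeloid RAGE ligands S100A8, S100A9 and S100A12 and the glial ligand S100B had 0 counts in all 10 libraries, which allows at most 0.0925 CPM in the shallowest library at 3 counts, by counting error only.

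S100A3 and S100A4 fell. S100A4, a gene tied to cell motility, was counted 51 to 67 times in the MG libraries and 15 to 34 times in the HG libraries (log2 fold change -1.16, edgeR adjusted p = 0.00729). S100A3 was counted 162 to 299 times in MG and 68 to 139 times in HG (log2 fold change -0.87, edgeR adjusted p = 0.00878). Neither gene overlapped between the groups in CPM. Both are expressed at a low level and lie in the same stretch of chromosome 1 as the more abundant S100A6 and S100A16, with S100A3 inside the span of S100A4 and no exonic base shared. S100A2, next to them, had a log2 fold change of -0.33 that did not pass (edgeR adjusted p = 0.211). S100A10 and S100A11 are separated by 38116 bases and lie 1309947 bases from the next S100 gene, and of that pair S100A10 passed the test and S100A11 did not. A test of the difference between neighbouring genes was not run.

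**Figure D4:**
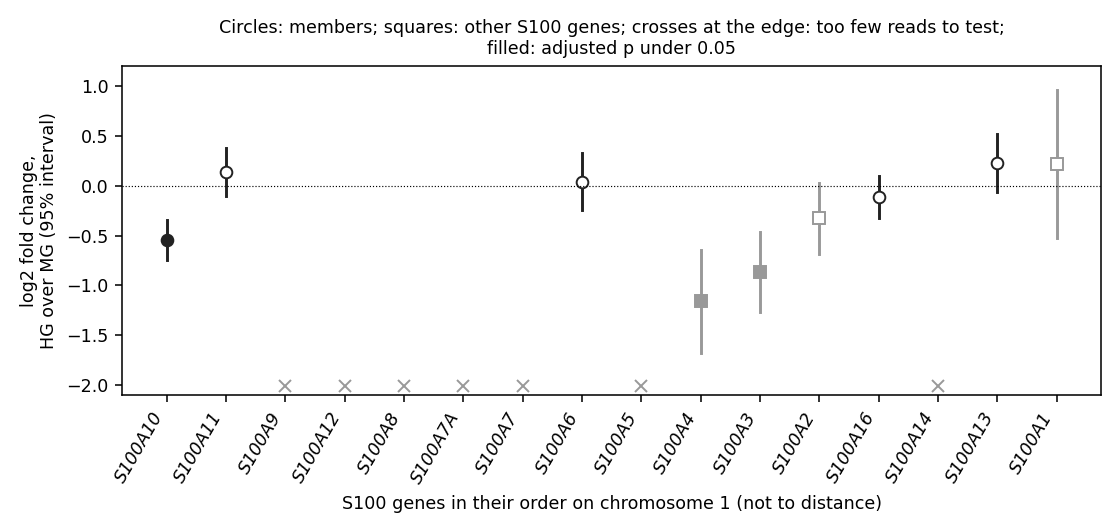
Log2 fold change of HG over MG with its 95% interval (vertical axis) for the 16 S100 genes of the chromosome 1 cluster in their order on the chromosome (horizontal axis, not to distance). Circles are the 5 genes of the main set, squares other S100 genes, crosses at the lower edge genes with too few counts to test, and filled symbols passed the test: S100A10 at -0.54, S100A4 at -1.16 and S100A3 at -0.87.

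The pattern over libraries was most alike, by Pearson's r of log2 CPM over 10 libraries and 14926 other rows, between GLO1 and CLCN4 (r = 0.983), HNRNPH3 (r = 0.978) and SLC20A1 (r = 0.974), which had log2 fold changes of 0.52, 0.33 and 0.40. For S100A6 the closest were RPL23A (r = 0.994), CCDC12 (r = 0.993) and BAP1 (r = 0.991), whose log2 fold changes were 0.03, 0.01 and 0.03. All points share the libraries and their depth and base composition: GLO1 and its neighbours followed the groups, whereas S100A6 and its neighbours were highest in MG_2 and HG_1. These correlations are a description, without a test.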

How the data were processed

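Total RNA was sequenced from 10 ARPE-19 libraries. The deposited table of read counts gives whole counts per gene and library, and a further deposited table gives FPKM values of the same libraries, made by the authors; both hold 22626 rows. The submitters' processing notes name fastp 0.20.1, HISAT2 2.2.1 and GRCh38. The counting program, its annotation and its use of strand are not given in the sources used here. The HG columns are numbered while the HG samples are lettered, so these columns were assigned to the group alone. The 20 within-group pairs of libraries differed by more than counting noise (chi-square per gene 13.8 to 78.5).

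Counts were analysed in R 4.3.3 with edgeR 4.0.16 (default filter on low counts, TMM, quasi-likelihood test, Benjamini-Hochberg adjustment over 14936 rows, threshold 0.05). Log2 CPM used a prior count of 2, and exact permutation tests used all 252 arrangements of the libraries. The fit was tested on simulated data. Annotation and coding sequences came from GENCODE release 29. The ratio of count to FPKM was divided by the total count of each library. It then varied between libraries by up to 1.61% for GLO1, S100A6, S100A10, S100A11 and S100A16. For HAGH it varied by 22.1%, for HMGB1 by 19.4% and for the others by 7.03 to 8.04% (cause not tested).

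The 10 genes and the lists were chosen with earlier results of these data known. Besides the 10, the text names the called genes of each list (up to 5 per list and direction, by size of change), ANXA2, AHNAK, ANXA1, CACYBP, DIAPH1, LGALS3, TXNIP, the 3 genes most alike to GLO1 and to S100A6, and markers; GCLC, GCLM, GSS, FN3K, HMGB3, S100A1, S100A2 and the S100 genes without counts were named after their values were seen. Alternatives were DESeq2 1.42.0, the likelihood ratio test, RLE factors, library size alone, other filters, limma 3.58.1 on log2(FPKM + 1) or log2(FPKM + 0.1), each library left out, both MG_2 and HG_1 left out, removal of each library's trends on GC content and transcript length (lowess, span 0.3), rows named MSTRG, which carry no reference gene, left out, and a block by column number. Counts of genes whose groups do not overlap were repeated, as an alternative chosen after seeing the data, with library size alone, RLE factors, log2(FPKM + 1), the trends removed, each library left out, and both MG_2 and HG_1 left out.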

Additional observations from a re-analysis of the deposited data

Results flagged for a closer look

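Of 24 groups of 5 libraries examined (the 10 genes and both ratios, in MG and in HG), 7 held a library whose gap to the nearest other exceeded Dixon's 95% critical value of 0.71 of the group's range; chance gives about 1 in 20. In the control medium MG_2 was that library for S100A6 (623.2 CPM, the others 433.9 to 482.1), S100A10 (159.4 CPM, the others 127.4 to 133.3), S100A11 (70.7 CPM, the others 52.8 to 56.9) and the ratio of S100A10 to ANXA2 (5.11%, the others 4.28 to 4.52%). In high glucose HG_1 was that library for PARK7 (119.9 CPM, the others 86.3 to 94.1), S100A6 (645.8 CPM, the others 438.0 to 477.1) and S100A13 (40.5 CPM, the others 27.5 to 31.0). All 7 were high values, and all came from MG_2 or HG_1. The 24 groups share the same 10 libraries, and the ratios reuse values of the genes, so the 7 are not independent of each other. MG_2 and HG_1 are also the libraries with GC slopes of 0.166 and 0.184 log2 units per 10 points, and the trend removed from S100A10 was 0.26 log2 units in MG_2 and 0.35 in HG_1. The part of base composition in each value was not tested.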

How the results depend on the processing

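GLO1 and S100A10 kept their direction and their call in all 23 alternatives. GLO1 ranged from 0.15 to 0.23 (log2) with a highest adjusted p of 0.039, and S100A10 from -0.62 to -0.48 with a highest adjusted p of 0.0279, both highest under the block by column number. Small changes turned sign in some: HMGB1 was 0.0092 with library size alone, PARK7 -0.018 and HMGB1 0.0020 without MG_2 and HG_1, and PARK7 -0.073 and S100A6 -0.026 with the GC and length trends removed. With those trends removed 4 of the 10 genes were called and did not overlap (GLO1, HAGH, S100A10 and S100A16), while over all rows 27.9% were called, against 15.4%, and 21% did not overlap, against 13.6%. The RAGE list went from 2 called genes to 4 with DESeq2, with at least 10 counts in every library and without rows lacking a reference gene, to 1 with limma on log2(FPKM + 0.1), to 5 without MG_2 and HG_1, and to 6 with the trends removed. The partner list went from 6 to 3 with limma on log2(FPKM + 0.1) and to 11 without MG_2 and HG_1. The causes of these moves were not tested.

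With each library left out in turn, 2 of the 10 genes were called each time and 2 to 3 did not overlap. S100A13 was added without MG_2, where 21.1% of all rows did not overlap, against 22.9% without HG_1 and 14.5 to 15.3% without any other library. The lists held 4 to 9 (dicarbonyl), 1 to 3 (RAGE), 3 to 4 (other S100 and HMGB) and 5 to 9 (partners) called genes. Log2 fold changes ranged from 0.071 to 0.22 (HAGH), -0.061 to 0.069 (PARK7), -0.30 to 0.017 (AGER), -0.022 to 0.022 (HMGB1), -0.074 to 0.15 (S100A6), 0.052 to 0.22 (S100A11), 0.13 to 0.34 (S100A13) and -0.20 to -0.051 (S100A16). The log2 ratio changed by -0.22 to -0.15 for S100A10 to ANXA2 and by -0.0013 to 0.15 for GLO1 to HAGH. Over all rows, 1648 to 2993 were called against 2303, the highest without HG_1. Same-numbered columns did not deviate together (r from -0.066 to 0.039). Whether columns of the same number share a culture or batch was not tested. A replicate block by that number left 1071 rows called, both of the 10 genes, and 5, 0 and 2 genes of the dicarbonyl, RAGE and partner lists; HMGB2 (adjusted p = 0.0864) and HSPA8 (adjusted p = 0.109) were among the calls lost. Of the 10 genes, AGER had the fewest counts (10 to 30 per library) and the widest interval.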
